A study of Mus musculus with 8 samples.

Results

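Bcl6, Prdm1 and Bach2 are the genes of 3 transcriptional repressors, and the binding of DC-SCRIPT around them was read from lists of CUT&Tag peaks. DC-SCRIPT, the product of Zfp366, is a zinc finger protein found in dendritic cells, and CUT&Tag cuts and tags the DNA next to an antibody-bound protein with a transposase. A peak belonged to one of the genes if its centre lay inside it or, where it lay in no protein-coding gene, if that gene was the nearest. This gave 79 of 34249 peaks: 70 of the 31473 in cDC1 and 9 of the 2776 in cDC2. The peaks were chosen by their position and by the authors' limits on wild-type against knockout tags, so all counts, tags and folds at them are descriptions, without tests.

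The cells were splenic conventional dendritic cells of female C57BL/6 mice, the cDC1 subset, known for cross-presentation to CD8 T cells, and the cDC2 subset, known for priming CD4 T cells. Mice were wild type (zfp366+/+) or lacked DC-SCRIPT (zfp366-/-), each library came from a pool of mice, and neither the age of the mice nor the deleted part of the gene is given in the sources used here. In cDC1 there were 3 pools of wild-type and 2 of knockout mice, and in cDC2 1 and 2. Each list compares 1 wild-type with 1 knockout tag set and gives no value per pool, so no spread between pools can be given. In cDC1 the wild-type set held 35.5 M tags and the knockout set 12.1 M, and in cDC2 they held 4.77 M and 6.83 M. The wild-type set of cDC1 was thus 7.43 times as deep as that of cDC2. Tags are given per 10 M tags of the set (normalised tags), scores, ranks and folds come from the authors' values, and the authors kept a peak if wild-type tags exceeded knockout tags by a fold of at least 4. Intervals are exact 95% intervals, cover counting error only and treat repeated tags as separate. Of 7 marker genes each, all 7 of cDC1 and 6 of cDC2 carried a cDC1 peak, 3 and 4 carried a cDC2 peak, and of 10 genes of other spleen cells 3 and 0 did, Cd3e, Cd3g and Siglech in cDC1. Of all protein-coding genes 51.4% carried a cDC1 peak and 9.54% a cDC2 peak. Such counts show peaks near the genes, not whether the genes are expressed.

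These repressors are known for a circuit of mutual control in lymphocytes. Bcl6 is a BTB zinc finger repressor that recruits corepressors such as Bcor, is required for germinal centre B cells and takes part in the development of cDC1. Prdm1 encodes Blimp-1, a PR-domain zinc finger repressor that drives plasma cell differentiation, restrains Bcl6 and Ciita, and in dendritic cells restrains Il6. Bach2 is a leucine zipper repressor that pairs with small Maf proteins, binds AP-1-like sites, and restrains Prdm1 in B and T cells.

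The promoter of Prdm1 was the one RefSeq promoter window of the 3 genes that held part of a peak. RefSeq (GRCm38.p6) gave 4 windows, each of the 250 bases before a start: 1 for Prdm1, 1 for Bach2 and 2 for Bcl6. The cDC1 peak at chr10:44458612-44458802 covered the Prdm1 start and the 54 bases before it. The window of Prdm1, on the minus strand at chr10:44458749-44458998, is shown with the bases inside the peak in capitals. The window before the second Bcl6 start, on the minus strand at chr16:23981284-23981533, held no peak and is shown for its 3 matches to the core recognised by Bcl6 itself, in capitals. Another window belongs to Gm35154, a long noncoding RNA gene upstream of Prdm1, on the plus strand at chr10:44598649-44598948. It is shown because a peak assigned to Prdm1 covered the last 37 of its 300 bases (250 before and 50 after its start), in capitals.
Prdm1 window: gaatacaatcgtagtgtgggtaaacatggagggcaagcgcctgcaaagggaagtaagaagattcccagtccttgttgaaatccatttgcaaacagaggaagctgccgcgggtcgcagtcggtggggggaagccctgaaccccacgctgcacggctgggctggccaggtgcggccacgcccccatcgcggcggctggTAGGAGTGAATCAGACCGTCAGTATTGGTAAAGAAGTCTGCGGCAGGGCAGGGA
Bcl6 window: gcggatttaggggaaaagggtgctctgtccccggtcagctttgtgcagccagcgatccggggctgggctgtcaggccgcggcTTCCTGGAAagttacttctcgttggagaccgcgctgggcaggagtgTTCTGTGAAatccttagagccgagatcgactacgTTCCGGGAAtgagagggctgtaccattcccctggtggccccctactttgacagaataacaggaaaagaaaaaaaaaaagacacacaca
Gm35154 window: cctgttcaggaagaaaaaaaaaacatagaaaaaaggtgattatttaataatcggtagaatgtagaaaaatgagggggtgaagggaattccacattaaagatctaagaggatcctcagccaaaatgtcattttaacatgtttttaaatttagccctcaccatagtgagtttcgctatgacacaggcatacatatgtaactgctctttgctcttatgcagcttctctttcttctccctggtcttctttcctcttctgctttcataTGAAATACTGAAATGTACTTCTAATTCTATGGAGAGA

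A search of both strands for 10 motifs described these letters. The AP-1 motif, searched as TGANTCA with any base in the middle, was found in 1 of the 4 windows, that of Prdm1. The match was TGAATCA, with A in the middle, from 48 to 42 bases before the start. It lay inside the bases covered by the peak, and whether AP-1 factors bind this form was not tested. Of all 32851 windows of this length, 6.75% held the AP-1 motif. The Bcl6 core TTCNNNGAA was found in both Bcl6 windows and in that of Bach2, against 7.02% of all windows. In the Bcl6 window shown, its matches began 168, 122 and 88 bases before the start, and the other Bcl6 window held 1 match, which began 118 bases before its start. The composite of an ETS and an IRF site was found in the Bcl6 window shown and in that of Bach2, where 2.30% of all windows held it. No match in the 4 windows was found for the interferon response type, the AP-1 with IRF composite, the Blimp-1 core, the Bach with Maf site (which contains the AP-1 motif, as the AP-1 with IRF composite does), AGGTCA (nuclear receptors), TGTGGT (Runx) or GAGGAAGT (PU.1). These are held by 2.98%, 0.0974%, 0.393%, 0.353%, 14.0%, 14.0% and 2.44% of all windows. A match is a run of letters and not a measured site.

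All 3 genes carried many cDC1 peaks. Bcl6 had 20, Prdm1 24 and Bach2 26, where 51.4% of 21887 protein-coding genes had at least 1 and the median gene had 1. As many peaks or more were assigned to 45 genes at the count of Bcl6, to 15 at that of Prdm1 and to 12 at that of Bach2, each gene itself included. The 3 genes also have long stretches of chromosome with no other protein-coding gene. Lpp, the upper neighbour of Bcl6, lies 404.5 kb away, and Prep, that of Prdm1, 538.7 kb away. Bach2 is itself 347.7 kb long, against 91.4 kb for Prdm1 and 23.8 kb for Bcl6. Set against the stretch nearest to each gene, cDC1 peaks numbered 8.22 per 100 kb at Bcl6, 6.04 at Prdm1 and 5.62 at Bach2, compared with 1.57 over the genome size used by the authors. In cDC2 the counts were 5, 0 and 4, where 9.54% of genes had at least 1 peak. The densities in cDC2 were 2.06 per 100 kb at Bcl6 and 0.865 at Bach2, with a genome-wide value of 0.139.

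**Figure D1:**
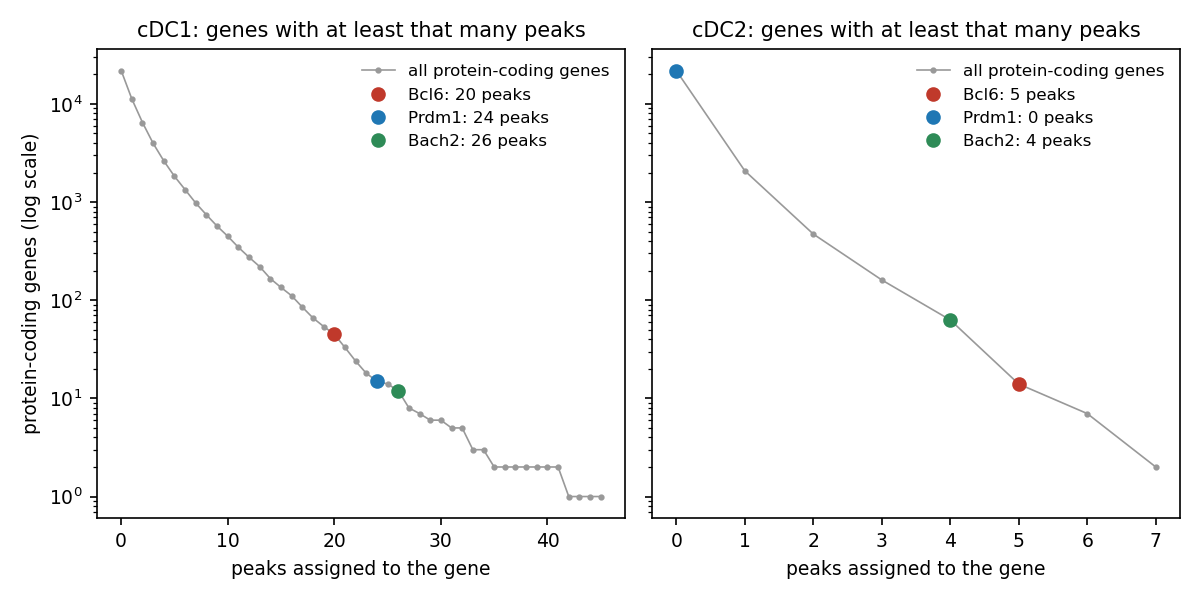
The horizontal axis gives the number of peaks assigned to a gene, and the vertical axis (log scale) the number of protein-coding genes with at least that many, in cDC1 (left) and cDC2 (right); grey points stand for all genes and coloured points for the 3 repressor genes. In cDC1 all 3 lie past the bulk of the genes, at 20, 24 and 26 peaks, where the gene with the most has 45, while in cDC2 Bcl6 lies at 5, Bach2 at 4 and Prdm1 at 0.

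The peaks lay at different places relative to the 3 genes, which also differ in how much of the stretch nearest to them they fill. Inside the gene lay 2 of the 20 cDC1 peaks of Bcl6 (95% interval 1.23% to 31.7%), 6 of the 24 of Prdm1 (9.77% to 46.7%) and 21 of the 26 of Bach2 (60.6% to 93.4%). These binomial intervals treat the peaks of a gene as independent, though peaks are not replicates and some stand close together. Of all cDC1 peaks on these chromosomes, 56.0% lay inside a gene. In cDC2, 1 of 5 Bcl6 peaks and 2 of 4 Bach2 peaks did, against 50.1% of all. The gene made up 23.8 kb of the 243.2 kb stretch nearest to Bcl6, 91.4 of 397.2 kb at Prdm1 and 347.7 of 462.5 kb at Bach2. Inside the gene, cDC1 peaks numbered 8.40, 6.57 and 6.04 per 100 kb, near the 8.22, 6.04 and 5.62 over the stretch. A difference in position beyond gene length was not tested. At Bcl6 all 18 peaks outside the gene lay upstream of its first start, on the side of Lpp, up to 176.8 kb away. At Prdm1 16 peaks lay beyond the gene on the upstream side, up to 276.5 kb from the start. Within 1 kb of a start given by the RefSeq promoter windows lay 2 peaks of Prdm1 and none of Bcl6 or Bach2. The nearest cDC1 peak centre was 3.89 kb from the first Bcl6 start, 1.57 kb from the second, and 5.89 kb from that of Bach2. The listed genes of Prdm1 and Bach2 both begin well before the start used. In cDC1, 5 peaks of Prdm1 and 17 of Bach2 were thus both upstream of that start and inside the gene. Whether other transcripts start there was not analysed here, so the distances upstream of the start hold for the start used only.

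**Figure D2:**
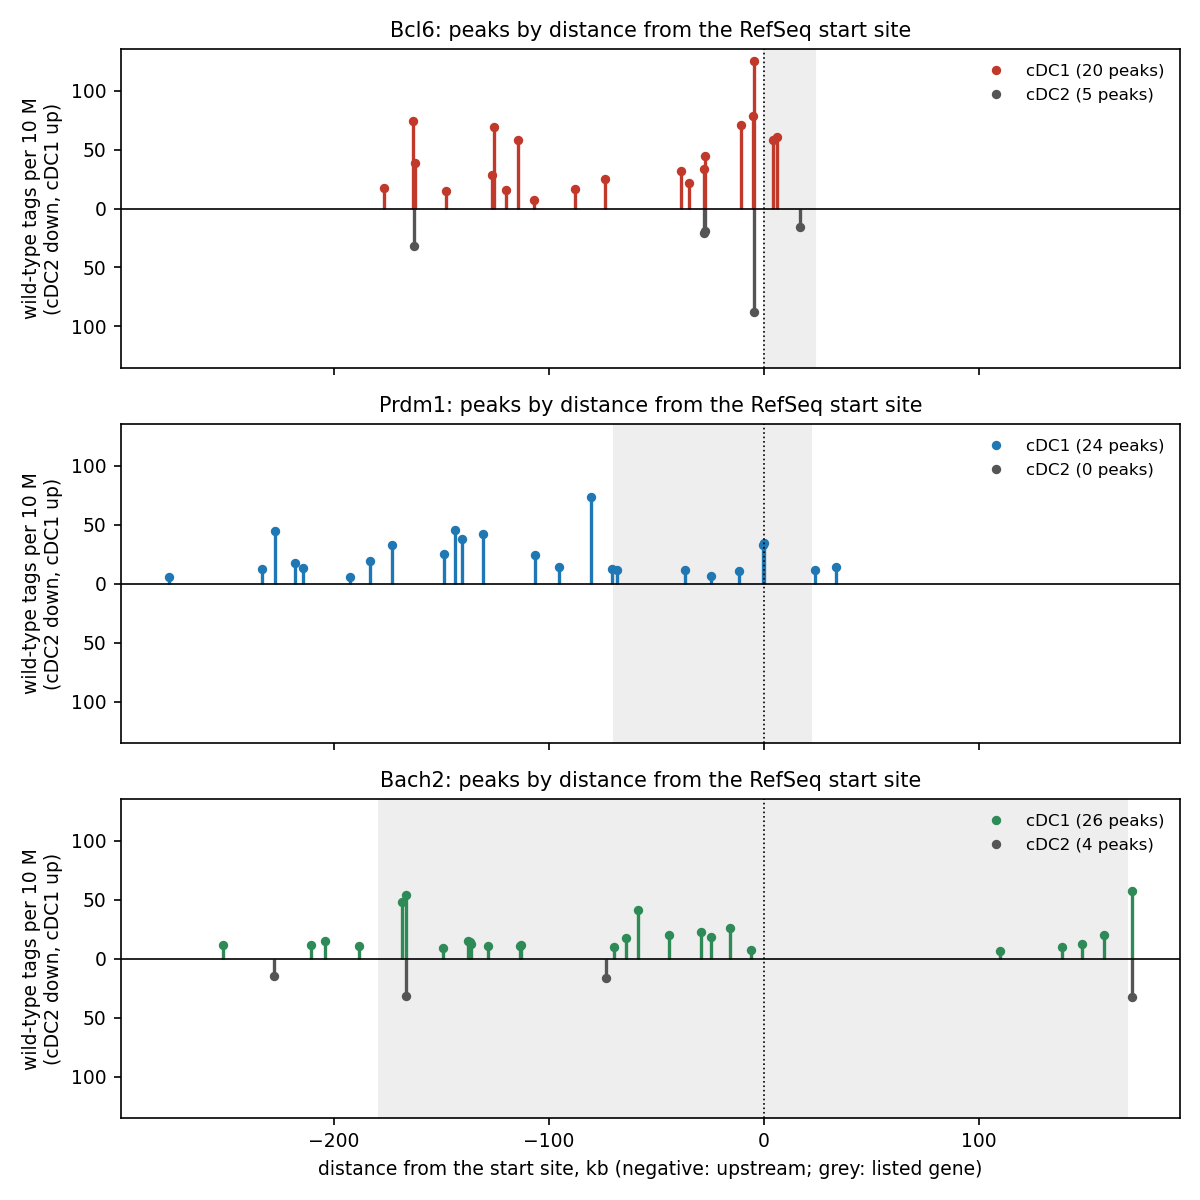
Each panel gives 1 gene; the horizontal axis is the distance in kb from its first RefSeq start (negative is upstream, grey the listed gene), and the vertical axis the normalised wild-type tags of each peak, cDC1 upwards and cDC2 downwards. The Bcl6 peaks reach 176.8 kb upstream with the highest at 4.62 kb, the Prdm1 peaks reach 276.5 kb upstream with no peak in cDC2, and the Bach2 peaks lie mostly within the gene.

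By their median the Bcl6 peaks in cDC1 were higher than those of the other 2 genes. Their wild-type level ran from 7.47 to 124.9 normalised tags with a median of 36.0, against medians of 15.7 for Prdm1 and 13.2 for Bach2 and of 15.5 over all cDC1 peaks. Of the Bcl6 peaks, 9 of 20 were among the 10% of the list with the highest authors' scores, as were 2 of 24 for Prdm1 and 4 of 26 for Bach2. Peaks of Bcl6 also stood close together. A neighbour within 1 kb was found for 8 of its 20 peaks, for 2 of 24 at Prdm1, for 5 of 26 at Bach2 and for 10.8% of all cDC1 peaks.

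The highest Bcl6 peak, at chr16:23993375-23993565, lay 4.62 kb upstream of the start and ranked 38 by score in the cDC1 list. It held 124.9 normalised wild-type tags (95% interval 114.6 to 138.3) and 3.30 in the knockout (0.898 to 8.44), a fold of 38.2 (14.8 to 140.9). A second peak stood 0.552 kb away, at chr16:23993927-23994117, with 78.4 tags in the wild type and 2.47 in the knockout, and a fold of 31.7 (10.7 to 154.6). Next by distance from the start was chr16:23999511-23999701, with 71.0 tags and 0.824 in the knockout. Its fold of 86.1 rests on 1 knockout tag (15.3 to 3418.1). These 3 peaks form the near upstream group of Bcl6. In each the wild-type and knockout intervals did not overlap. The authors' limits had already chosen these peaks for more wild-type than knockout tags, so this gap is a description only.

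A second group of Bcl6 peaks lay far upstream, between Bcl6 and Lpp. The peak at chr16:24151987-24152177, 163.2 kb upstream, held 74.4 wild-type and 3.71 knockout tags, a fold of 20.1 (7.64 to 56.1). At 125.8 kb, the peak at chr16:24114551-24114741 held 69.5 wild-type and 4.12 knockout tags, a fold of 16.9 (7.11 to 52.3). A further one at 114.3 kb held 57.8 and 3.71 tags and stood out most from its surroundings. The authors' fold over the local signal of the 10 kb around it was 21.8, where the median of the Bcl6 peaks was 5.79. Inside the gene, 6.00 kb and 3.89 kb downstream of the first start, 2 peaks of 60.3 and 58.1 wild-type tags stood 2.11 kb apart. Of all 20 Bcl6 peaks the second of these had the most knockout tags, 8.65 (4.53 to 16.2), and a fold of 6.75 (3.52 to 13.1). The lowest Bcl6 peak, 7.47 tags at 106.9 kb upstream, had knockout tags at the lowest listed value. That value, 0.5 tag, also stands for no tag, and the exact lower limit of this peak's fold was 2.34.

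Around Prdm1 the highest cDC1 peak lay beyond the gene, at chr10:44539101-44539291, 80.4 kb upstream of the start used. It lay 10.6 kb above the upper gene end, which is the upstream end. It held 73.4 wild-type tags (64.7 to 82.8) and 7.42 in the knockout (3.39 to 14.1), a fold of 9.89 (5.13 to 21.9). Both peaks at the promoter were lower. The one that covers the start held 34.0 wild-type and 2.47 knockout tags, a fold of 13.7 (4.57 to 67.3). The one 0.693 kb upstream, at chr10:44459346-44459536, held 32.4 and 1.24 tags, a fold of 26.2 (5.32 to 164.4). Their wild-type intervals, 28.1 to 40.5 and 26.8 to 38.9, overlapped, and both lay below that of the highest peak.

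Other high Prdm1 peaks lay from 130.6 kb to 227.5 kb upstream. At 227.5 kb, chr10:44686161-44686351 held 44.3 wild-type and 2.47 knockout tags, a fold of 17.9 (6.01 to 87.7). At 143.6 kb, chr10:44602231-44602421 held 45.1 wild-type tags with knockout tags at the lowest listed value, and the lower limit of its fold was 14.7. The peak at the start of Gm35154, 140.3 kb upstream at chr10:44598912-44599102, held 37.6 and 2.06 tags, a fold of 18.4 (5.12 to 75.0). The 4 peaks inside the gene away from the promoter were weak, with 6.48 to 11.7 wild-type tags. Downstream of the gene stood 2 peaks of 11.1 and 14.2 tags. Nearest to the upper gene end, 1.09 kb beyond it, chr10:44529549-44529739 held 12.3 wild-type and 2.47 knockout tags. Its fold of 4.96 (1.61 to 25.3) was the lowest at Prdm1. The farthest Prdm1 peak, 276.5 kb upstream, was also the weakest, at 5.36 tags. Of the 24 Prdm1 peaks 6 had knockout tags at the lowest listed value, where 20.1% of all cDC1 peaks did, and 3 of 20 Bcl6 peaks and 2 of 26 Bach2 peaks did so.

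Of the 26 Bach2 peaks, 4 reached 40 normalised tags or more. The highest, at chr4:32588138-32588328, lay 2.12 kb beyond the upper end of the gene, which is its downstream end. It held 57.4 wild-type tags (49.6 to 65.7) and 3.30 in the knockout (0.898 to 8.44), a fold of 17.4 (6.68 to 64.3). A pair 2.01 kb apart stood near the lower end of the listed gene, 168.3 kb and 166.3 kb upstream of the RefSeq start. The first, at chr4:32249070-32249260, held 47.9 wild-type and 0.824 knockout tags, and its fold of 58.1 rests on 1 knockout tag (10.3 to 2310.2). The second, at chr4:32251077-32251267, held 54.0 and 1.65 tags, a fold of 32.7 (8.92 to 271.7). Between them and the start, chr4:32358799-32358989 held 41.3 and 3.30 tags, a fold of 12.5 (4.77 to 46.4). The fifth by score, 15.7 kb upstream at chr4:32401644-32401834, held 26.1 and 2.88 tags. The remaining 21 peaks held 6.20 to 22.3 wild-type tags. Among them, the peak nearest to the lower gene end, 9.06 kb below it, held 10.3. Between the start and the downstream end of Bach2 the first 109.5 kb held no peak.

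**Figure D3:**
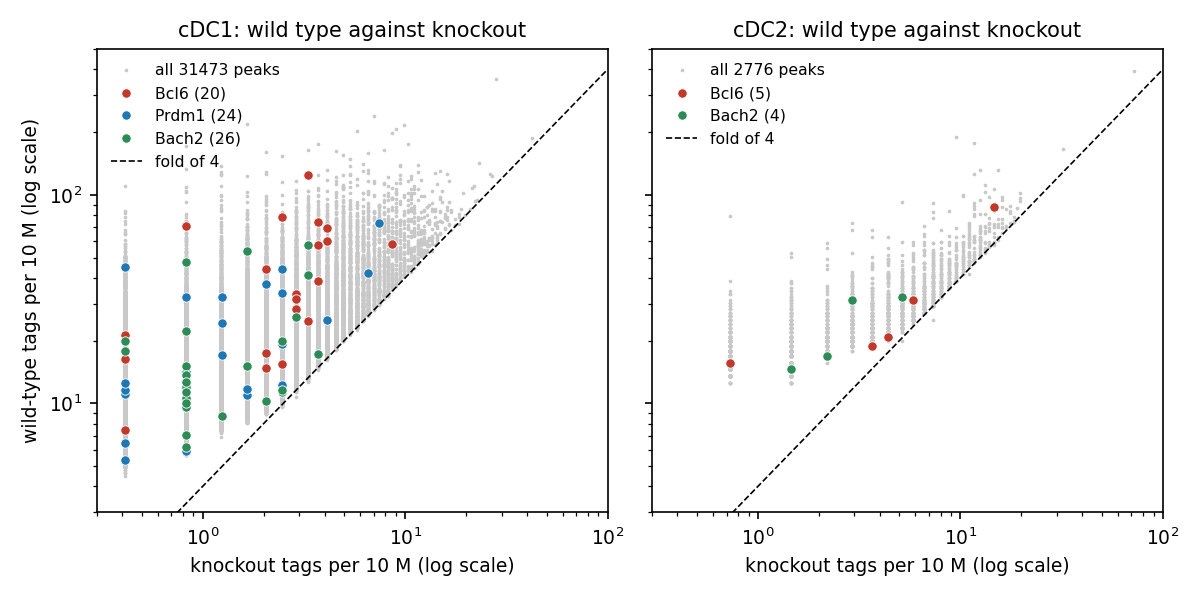
Knockout (horizontal) against wild-type normalised tags (vertical), both on log scales, for all peaks (grey) and those of the 3 genes, in cDC1 (left) and cDC2 (right); the dashed line marks the authors' limit, a fold of 4. The Bcl6 peaks sit high in cDC1, up to 124.9 tags, most Bach2 peaks sit at or near the lowest knockout values, and Prdm1 has no point in cDC2.

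In cDC2 the 5 Bcl6 peaks included 1 of the strongest of that list. The peak at chr16:23993482-23993672 ranked 26 by score and held 88.0 wild-type tags (63.4 to 118.9) and 14.6 in the knockout (7.02 to 26.9), a fold of 6.00 (2.96 to 13.4). It overlapped the highest Bcl6 peak of cDC1 by 84 bp. Wild-type tags there were 1.42 times as high in cDC1 as in cDC2, and knockout tags 4.44 times as high in cDC2 as in cDC1. Their wild-type intervals overlapped narrowly. The knockout intervals, 0.898 to 8.44 in cDC1 and 7.02 to 26.9 in cDC2, also overlapped. No spread between pools can be given for either, and 1 wild-type pool stands behind cDC2.

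The other shared Bcl6 sites were weaker in cDC2. At 27.6 kb upstream the cDC2 peak held 18.8 wild-type tags (8.62 to 35.8) and its cDC1 partner 44.1 (37.4 to 51.5), so that these intervals did not overlap. At 28.1 kb the values were 20.9 and 33.6, and at 162.6 kb they were 31.4 (17.6 to 51.8) and 38.5 (32.4 to 45.7). These 2 pairs of intervals overlapped. The cDC2 folds at the 3 sites were 5.15 (1.07 to 24.6), 4.76 (1.23 to 26.9) and 5.36 (1.71 to 22.2), and the cDC1 folds 21.4, 11.7 and 10.4. Across all 1767 shared regions the median ratio of wild-type tags in cDC1 to those in cDC2 was 1.09, and the median ratio of knockout tags in cDC2 to those in cDC1 was 1.78. The fifth cDC2 peak, inside Bcl6 at chr16:23972248-23972438, had its nearest cDC1 peak 10.5 kb away. It held 15.7 wild-type tags with knockout tags at the lowest listed value, and the lower limit of its fold was 2.44.

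Bach2 shared its highest 2 cDC1 sites with cDC2. Near the downstream end of the gene the cDC2 peak held 32.5 wild-type tags (19.2 to 54.4) and 5.13 in the knockout, a fold of 6.33 (1.84 to 23.5), where cDC1 held 57.4. At 166.4 kb upstream it held 31.4 (19.2 to 54.4) and 2.93 tags, a fold of 11.1 (2.69 to 102.5), where cDC1 held 54.0. The interval beside 31.4 was made from the 15.5 wild-type tags behind the fold, rounded up. In both pairs cDC1 was higher, and the intervals overlapped. The other 2 cDC2 peaks of Bach2 overlapped no cDC1 peak. The one at chr4:32344036-32344226, with 16.8 wild-type and 2.20 knockout tags, lay 3.33 kb from the nearest cDC1 peak. The one at chr4:32189520-32189710, with 14.7 and 1.46 tags, lay 17.2 kb from it. Overlap with a cDC1 peak was thus found for 4 of 5 cDC2 peaks at Bcl6 and 2 of 4 at Bach2, against 63.7% of all cDC2 peaks.

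**Figure D4:**
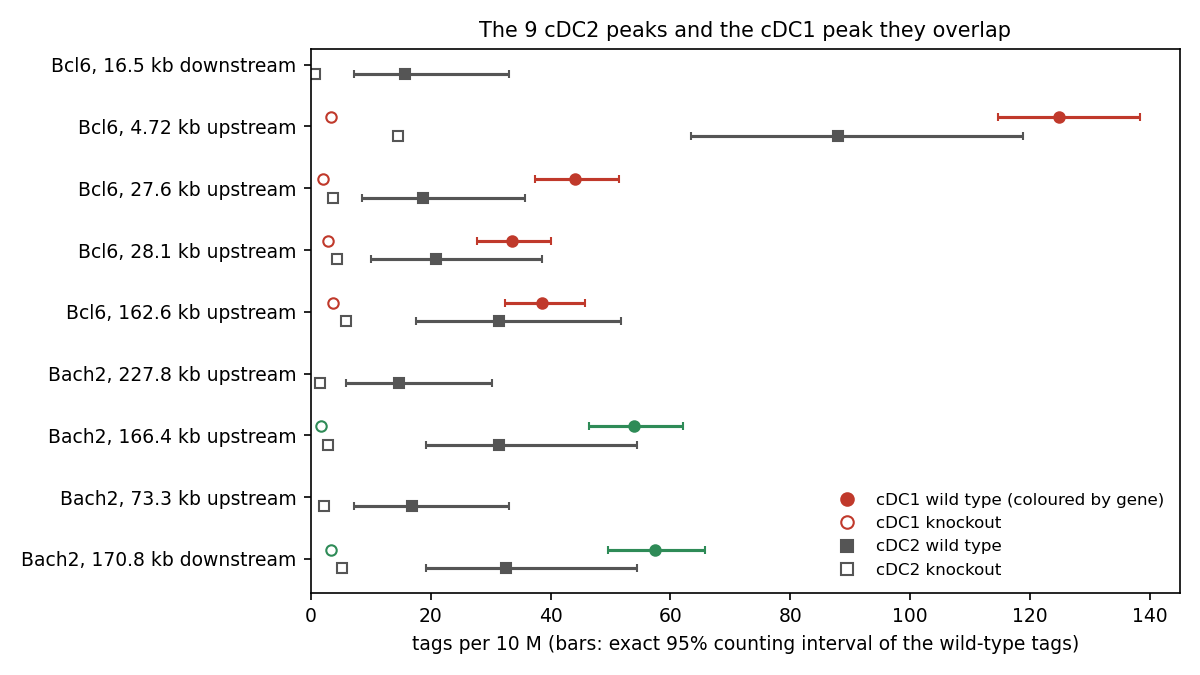
Each row is 1 of the 9 cDC2 peaks, named by its distance from the RefSeq start; circles give cDC1 and squares cDC2 in normalised tags, filled for wild type with the exact 95% counting interval and open for knockout. The Bcl6 site 4.72 kb upstream stands apart in both subsets, at 124.9 and 88.0 wild-type tags, and 3 rows have no cDC1 partner.

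No cDC2 peak was assigned to Prdm1, which was also the case for 90.5% of genes. None of its 24 cDC1 peaks overlapped a cDC2 peak. With no cDC2 peak assigned to Prdm1, this is nearly fixed beforehand and is no second result. The limit that a count of 0 allows, taken as 3 of 24 peaks, is a share of 12.5%, and it treats the peaks as independent. Of all cDC1 peaks 5.61% overlapped a cDC2 peak. The authors' tag limit in cDC2, 7 tags, equals 14.7 normalised tags. In cDC1, 12 of 24 Prdm1 peaks, 14 of 26 Bach2 peaks and 1 of 20 Bcl6 peaks lay below it, against 46.5% of all cDC1 peaks. The cDC2 list holds 60 peaks under this value, of 12.6 normalised tags or more. The level of a site in cDC1 does not give its level in cDC2, and the part of depth in the count of 0 was not tested. The wild-type level of the highest cDC1 peak of Prdm1, scaled to the cDC2 depth, equals 35.0 tags, and those of the promoter peaks equal 16.2 and 15.5. Among the 10% of cDC1 peaks with the most wild-type tags (40.5 or more), 19.4% overlapped a cDC2 peak. They included 4 Prdm1 peaks, of which 0 overlapped one, 9 Bcl6 peaks, of which 2 did, and 4 Bach2 peaks, of which 2 did. The 0 at Prdm1 again restates that no cDC2 peak was assigned to it. Wild-type and knockout tags of cDC2 at places without a peak were not analysed here, so a difference between the subsets at Prdm1 was not tested.

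The count of 0 at Prdm1 in cDC2 depends on the assignment to the nearest gene. The nearest cDC2 peak below the gene, at chr10:44380852-44381042, lay 56.2 kb from Prdm1 and 16.6 kb from Atg5, the autophagy gene to which it was assigned. It held 62.8 wild-type tags and a fold of 5.36. The nearest cDC1 peak given to another gene on that side stood at the same place, at chr10:44380862-44381052, with a fold of 27.5 and 89.9 wild-type tags, more tags than at any Prdm1 peak. Just inside the limit on the same side stood the Prdm1 peak of 14.2 tags, 12.1 kb from the gene. At Bcl6 the farthest assigned cDC1 peak, 176.8 kb above the gene, held 17.5 tags, and the first one given to Lpp, 204.5 kb above Bcl6, held 17.3. At Bach2 the first cDC1 peak given to Map3k7 lay 118.7 kb below the gene and held 6.48 tags, and the farthest one kept, 72.5 kb below it, held 11.4.

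Relatives, partners and circuit genes of the 3 repressors were counted for context. Of 13 genes related to the repressors 9 had a cDC1 peak, against 51.4% of all genes, with a median of 1 peak as over all genes. Bach1, which also pairs with small Maf proteins, had the most among them at 8, and the highest-scoring peaks were those of Zbtb7a, Zbtb7b and Patz1, at 57.4, 46.1 and 26.2 normalised tags. Of 21 corepressor and partner genes 19 had a cDC1 peak, against 51.4% of all genes, with a median of 2. Tbl1xr1, a subunit of nuclear receptor corepressor complexes, carried 23. The highest-scoring peaks of this group belonged to Maff, a small Maf gene, at 74.2 tags, to Tle3 at 60.8 and to Tbl1xr1 at 61.6. In cDC2, 2 of the 13 relatives (Bach1 and Zbtb32) and 4 of the 21 partners (Bcorl1, Tbl1xr1, Rcor1 and Tle3) had a peak, against 9.54% of all genes.

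Of 17 circuit and target genes 16 had a cDC1 peak, against 51.4% of all genes, with a median of 4, and Spib was the exception. The highest-scoring peaks were those of Id2, an inhibitor of basic helix-loop-helix factors needed for cDC1, with 32 peaks and 79.8 tags, Ciita, the class II transactivator, with 4 peaks and 65.3 tags, and Myc with 13 peaks and 58.8 tags. In cDC2 Irf4, Ciita, Myc, Id2, Id3 and Cxcr5 had a peak, 6 of 17, against 9.54% of all genes. All 3 groups were drawn up with earlier results of these data known, so their counts are no independent evidence. By the number of peaks and the highest wild-type tags in both lists, 4 values per gene on a log2(value + 1) scale, the genes most like Bcl6 were Tomm20, Chd7 and Bcas1 (distances 0.672, 0.774 and 0.774). Those most like Prdm1 were Ubac2, Mbnl1 and Atp10a (0.440, 0.478 and 0.557), and those most like Bach2 were Rad51b, Gnaq and Arhgap26 (0.368, 0.373 and 0.397).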

How the data were processed

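CUT&Tag libraries of DC-SCRIPT from 8 mouse pools were put into groups by their titles. Per the file headers, peaks were called with HOMER findPeaks in factor mode on 1 wild-type against 1 knockout tag set, with a fold of at least 4 and a Poisson p-value of at most 0.0001 over the knockout and over the surrounding 10 kb. The deposited fold is a ratio, wild type over knockout at the same depth. The submitters' processing notes name HOMER, GRCm38 and mm10. The sources used here do not give the aligner, the treatment of duplicate reads or the pooling of libraries. The deposited signal holds wild-type tags scaled by the authors to 10000000. The deposited score is HOMER's own and was ranked within a list, and the deposited focus ratio, a fraction, was not used.

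Knockout depth was computed from the authors' scaling of the columns. A count of 3 knockout tags is worth 2.47 normalised tags for cDC1 and 4.39 for cDC2. Peaks were assigned with the RefSeq table of GRCm38.p6 (chromosomes with 21887 protein-coding genes, symbols of all 3 members matched). Intervals of the tag ratio and of shares of peaks are Clopper-Pearson intervals, and those of tags are exact Poisson intervals. For both kinds of tag interval, tags were rounded to whole tags (Python 3.11.15, scipy 1.17.1). The wild-type tags used were those behind the fold, which at some peaks differ slightly from the normalised tags printed. The assignment of centres inside genes and the intervals of the tag ratio were tested on simulated data. The assignment to the nearest gene and the other intervals were not. Strand and starts came from RefSeq promoter windows. Exons and introns were not used here. One listed gene is not reported here. Members and gene lists were chosen with earlier results of these data known. Peaks named were the 5 with the highest score per gene and subset, all in cDC2, those nearest to the gene ends and those farthest away. The Bcl6 peaks at 3.89, 6.00, 106.9 and 114.3 kb were chosen after their values were seen. So were the Prdm1 peaks at its start and at 130.6 kb. From each gene list the 3 genes with the highest-scoring cDC1 peak were named, and others after their values were seen.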

Additional observations from a re-analysis of the deposited data

How the results depend on the processing

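Of 40 alternative values for 11 results, 24 stayed within 1.5 times the main count or within the interval of the main share. The counts of peaks moved with the assignment. With centres inside the gene, cDC1 peaks fell from 20 to 2 at Bcl6 and from 24 to 6 at Prdm1, and cDC2 peaks from 5 to 1 at Bcl6 and from 4 to 2 at Bach2. Within 10 kb of the gene, cDC1 counts were 4 at Bcl6 and 8 at Prdm1, and the cDC2 count at Bcl6 was 2. Any peak within 100 kb gave 11 in cDC1 at Bcl6 and 1 in cDC2 at Prdm1. The higher-scoring 50% of peaks left 12 in cDC1 at Prdm1 and 11 at Bach2, and 2 in cDC2 at Bcl6 and 2 at Bach2. A fold of at least 8 left 1 cDC2 peak at Bcl6 and 2 at Bach2. When 50% of the shorter peak had to overlap, 1 of the 2 shared cDC2 peaks of Bach2 stayed shared. By construction each of these settings keeps fewer peaks, except the 100 kb window. The cDC2 count of 0 at Prdm1 could therefore move only with that window, and its other settings say nothing about stability. Shares of cDC1 peaks inside the gene stayed within their intervals. The overlap settings give no value for Prdm1, which has no cDC2 peak. No paired analysis was possible because the lists carry no value per replicate, and for the same reason no replicate could be left out. The cDC2 depth limits what its list can show.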

Other observations

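Among the cDC1 peaks of Bcl6 that overlap no cDC2 peak, 2 stood within 1 kb of a shared one. The peak 163.2 kb upstream held 74.4 normalised wild-type tags, while its neighbour 0.689 kb nearer to the gene, with 38.5, was the one that overlapped the cDC2 peak. The weaker peak of this pair was thus the shared one, by an overlap of 114 bp. At the near upstream pair the stronger peak, of 124.9 tags, was shared, and its neighbour of 78.4 tags, 0.552 kb away, was not. Whether the cDC2 tags lie between both peaks of a pair was not tested.

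Peaks inside the gene numbered 8.40 per 100 kb of gene at Bcl6, 6.57 at Prdm1 and 6.04 at Bach2 in cDC1, compared with 1.71 over all protein-coding genes. The 3 densities differed less among themselves than the counts of 2, 6 and 21 from which they come. In cDC2 the densities were 4.20, 0 and 0.575, compared with 0.135 over all genes, from counts of 1, 0 and 2.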
